A study of Mus musculus with 12 samples.

Results

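The 10 genes described here are Nfe2l2, Keap1, Hmox1, Nqo1, Gclc, Gclm, Srxn1, Txnrd1, Osgin1 and Gsr. They were chosen by name as members of the NRF2 antioxidant pathway and matched by symbol among 37583 gene IDs, and all 10 were found. NRF2, the product of Nfe2l2, is a transcription factor that binds antioxidant response elements together with small MAF proteins. KEAP1 holds NRF2 in the cytoplasm and directs its degradation, and oxidants or electrophiles modify KEAP1 so that NRF2 accumulates in the nucleus and its targets are transcribed. Those targets make and recycle glutathione and thioredoxin, detoxify quinones and break down haem, and in bone the pathway is known to limit oxidative stress in cells of the osteoblast lineage.

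The genes were measured by RNA-seq in 12 libraries of Ocy454 cells, a mouse osteocyte line from long bone that carries a temperature-sensitive T antigen and, per the study's methods, was used as a single-cell subclone. Osteocytes are the cells inside bone matrix that sense load. The control group is the line that the labels call original. The DKO group carries, by its labels, a deletion of both HDAC4 and HDAC5, which are class IIa histone deacetylases. Both were kept static or put under fluid flow shear stress (FFSS) for 3 h by orbital rotation of the dishes, giving 4 groups of 3 libraries. The comparisons ask how FFSS changes expression, whether the deacetylases matter for that change, and how the genotypes differ. How the DKO line was made, and whether it is 1 clone, is not given in the sources used here, so the deletion and the derivation of the line cannot be told apart. The labels do not say that the 3 libraries of a group came from separate cultures, so the p-values measure the spread between these libraries, which may be technical.

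Each library held between 17.6 and 19.2 M reads assigned to genes. In static libraries Hdac5 had 2473, 2706 and 2421 reads for control against 1503, 1461 and 1634 for DKO. Of 2 Hdac4 IDs, ENSMUSG00000026313 had 550, 458 and 484 against 220, 309 and 259. The other had 440, 404 and 473 against 311, 323 and 325. Both transcripts were thus lower in DKO static libraries and neither was lost, but reads do not measure the proteins. Under FFSS the Hdac5 reads of the genotypes overlapped, with 1755, 1457 and 1664 for control against 1687, 1553 and 1660 for DKO. Those of the Hdac4 IDs did not, with 597, 775 and 860 against 239, 214 and 250 for ENSMUSG00000026313. The other ID had 606, 403 and 441 against 322, 270 and 309. Of the osteocyte markers, Sost had 1.48, 2.14 and 12.4 reads per M reads (CPM) in control static against 2097, 2049 and 2042 in DKO static libraries, and Fgf23 had at most 1 read in any library. The summed level of the 9 osteocyte markers was 17466 to 21333 CPM in control static, 5821 to 18040 in control FFSS, 59249 to 66382 in DKO static and 61567 to 63690 in DKO FFSS libraries. Col1a1 carried most of that sum, with a mean of 17133 CPM in control static and 50464 in DKO static cells. Of the 8 that could be tested, 6 were higher and 1, Pdpn, was lower in static DKO cells (28.4 CPM in control and 5.11 in DKO cells on average). The 5 chondrocyte markers summed to 78.1 to 103 CPM in control static, 50.9 to 83.3 in control FFSS, 2360 to 2947 in DKO static and 2004 to 2477 in DKO FFSS libraries. Of these 5, 4 were higher in static DKO cells and 1 did not pass the test, against 27% of all genes higher. Their median log2 fold change was 1.33, so the sum does not give the size of the difference for each marker. The 4 macrophage and blood cell markers found summed to 24.1 to 28.5, 15.6 to 23.5, 2.91 to 3.29 and 3.04 to 3.51 CPM in the same order. Cd68 carried most of each sum, with a mean of 25.5 CPM in control static and 2.32 in DKO static cells, and the defining marker Ptprc had at most 3 reads in any library. The 4 endothelial markers summed to at most 1.03 CPM. Control FFSS replicate 1 stood apart from its group: the chi-square statistic of its counts per degree of freedom was 64.9 and 59.1 against replicates 2 and 3, whereas all other replicate pairs lay between 2.03 and 6.60. Its reads outside annotated genes were 6.05% of the total, against 9.45% and 10.3% in replicates 2 and 3, 5.25% to 5.36% in control static, 7.27% to 7.35% in DKO static and 8.16% to 8.80% in DKO FFSS libraries. Without it, the share of all genes called with FFSS in control cells was 55.2%, against 35.8% with all 12 libraries. Some values below are also given with the share of reads outside genes as a covariate, or from fits without this library. That share differed between static and FFSS libraries and between the static genotypes, so it cannot be fully told apart from FFSS or genotype. Within the other groups it varied little, so the covariate fit rests mostly on control FFSS replicate 1 against replicates 2 and 3. It is therefore not independent of fits that leave out this library or keep it alone in its group. Whether marker levels, reads outside genes or this library are the cause of any difference below was not tested.

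RefSeq promoter sequences (GRCm38.p6, from 250 bases before to 50 bases after a start site) were found for 7 of the 10 genes, all but Hmox1, Gclc and Gsr. They were searched on both strands for the core of the antioxidant response element, TGACNNNGC, in which N is any base. It was present in 4 of the 7 genes (57.1%), and in 14% of all 27025 genes with a promoter in the table. It was found in the other NRF2 targets for 9 of 28 genes (32.1%), in the partners and regulators of NRF2 for 3 of 12 (25%) and in the other antioxidant enzymes for 2 of 22 (9.09%). A match describes these letters only and is not a shown binding site. The promoters with a match are printed below because they hold the letters that NRF2 with small MAF proteins is known to bind, and that of Osgin1, which held no match, because this gene differed most between the genotypes in static cells. Capitals mark the match, all sequences run 5′ to 3′ on the strand of the gene, and where a match lies on the opposite strand its reverse complement appears in capitals.
Nfe2l2 promoter, chr2:75704614-75704913, minus strand: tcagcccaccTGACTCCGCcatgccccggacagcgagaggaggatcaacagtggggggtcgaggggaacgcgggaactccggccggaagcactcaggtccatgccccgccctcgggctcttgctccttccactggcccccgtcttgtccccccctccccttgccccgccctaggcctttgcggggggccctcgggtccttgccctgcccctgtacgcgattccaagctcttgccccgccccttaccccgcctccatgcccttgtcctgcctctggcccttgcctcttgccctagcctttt
Gclm promoter, chr3:122245307-122245606, plus strand: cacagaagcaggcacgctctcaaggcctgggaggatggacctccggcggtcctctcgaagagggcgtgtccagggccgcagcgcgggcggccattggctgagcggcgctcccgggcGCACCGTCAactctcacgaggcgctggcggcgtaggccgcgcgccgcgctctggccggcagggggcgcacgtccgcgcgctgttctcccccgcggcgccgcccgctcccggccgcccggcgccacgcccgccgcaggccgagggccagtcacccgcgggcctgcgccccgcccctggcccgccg
Srxn1 promoter, chr2:152105274-152105573, plus strand: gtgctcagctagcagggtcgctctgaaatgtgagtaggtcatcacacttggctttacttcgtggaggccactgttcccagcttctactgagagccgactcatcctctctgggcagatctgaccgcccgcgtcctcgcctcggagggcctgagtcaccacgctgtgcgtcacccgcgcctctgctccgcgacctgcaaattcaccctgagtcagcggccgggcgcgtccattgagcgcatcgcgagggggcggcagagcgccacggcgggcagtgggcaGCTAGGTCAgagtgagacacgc
Txnrd1 promoter, the second of 3 listed, chr10:82858956-82859255, plus strand: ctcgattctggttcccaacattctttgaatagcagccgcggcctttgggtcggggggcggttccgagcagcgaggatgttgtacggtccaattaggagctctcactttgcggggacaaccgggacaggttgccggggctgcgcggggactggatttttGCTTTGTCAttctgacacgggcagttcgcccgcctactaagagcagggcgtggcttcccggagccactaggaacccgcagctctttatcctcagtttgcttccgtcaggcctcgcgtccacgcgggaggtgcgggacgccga
Osgin1 promoter, chr8:119436897-119437196, plus strand: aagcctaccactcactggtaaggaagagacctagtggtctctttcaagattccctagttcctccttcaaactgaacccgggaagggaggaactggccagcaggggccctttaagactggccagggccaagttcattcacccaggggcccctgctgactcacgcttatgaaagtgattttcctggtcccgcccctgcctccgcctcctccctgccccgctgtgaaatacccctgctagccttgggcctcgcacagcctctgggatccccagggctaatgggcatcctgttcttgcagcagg
The match read TGACTCCGC in Nfe2l2 and began at position −240, counted on the strand of the gene with the first transcribed base as 1. In Gclm it read TGACGGTGC on the opposite strand at −134, and in Txnrd1 TGACAAAGC on the opposite strand at −92. The match of Srxn1, TGACCTAGC on the opposite strand, began at position 29, within the transcribed part. The promoters of Keap1 and Nqo1 and the other 2 of Txnrd1 held no match to these letters within the 300 bases.

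In static cells, 8 of the 10 genes were lower in DKO than in control cells and none was higher, also at an unadjusted p under 0.05. DESeq2 and limma-voom each called 8, against 53.8% and 54.4% of the genes each tested, in either direction. The lower genes were Nfe2l2, Keap1, Hmox1, Nqo1, Gclc, Srxn1, Txnrd1 and Osgin1, whereas Gclm and Gsr did not pass the test. Over all 14904 genes tested, 27.2% were called lower and 27% higher in this comparison (edgeR, adjusted p under 0.05 after Benjamini-Hochberg correction of its quasi-likelihood test). Hmox1 and Osgin1 were lower by more than 2-fold, a size passed in either direction by 15.3% of all genes. Over the 10 genes the median log2 fold change was −0.55, against 0.010 for all genes tested. With each library's share of reads outside genes as a covariate, 7 were lower and 2 (Gclm and Gsr) higher, against 29.5% and 28.5% of all genes in that fit.

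Under FFSS the DKO cells were lower than control cells in 6 of the 10 genes (Hmox1, Nqo1, Gclc, Srxn1, Txnrd1 and Osgin1) and higher in 2 (Gclm and Gsr). With library totals alone in place of TMM scaling the split was 8 lower and 0 higher, as Nfe2l2 and Keap1 passed as lower and Gclm and Gsr did not pass. In that fit 42.2% of all genes were called lower and 18.5% higher. With control FFSS replicate 1 as the only library of its group the split was 8 lower and 1 higher, against 26.8% and 27.8% of all genes. In this last fit, here and wherever it is named, the other 3 groups supply the spread and the lone library is assumed to vary like them, so its p-values hold no measure of spread within control FFSS cells. With all 12 libraries and TMM scaling, 29.6% of all genes were called lower and 27% higher. Only Osgin1 among the 10 passed 2-fold, as did 17.2% of all genes. The median log2 fold change was −0.51 for the 10 genes and −0.051 for all genes. The libraries of the genotypes did not overlap for 9 of the 10 genes in static cells and for 8 under FFSS, against 69% and 58.4% of all genes tested.

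With FFSS in control cells, 4 of the 10 genes rose (Gclc, Txnrd1, Srxn1 and Osgin1) and 3 fell (Hmox1, Nfe2l2 and Keap1). Of all genes tested, 17.7% were called higher and 18.1% lower. No gene of the 10 changed by more than 2-fold, whereas 5.93% of all genes did. The median log2 fold change was −0.069 for the 10 genes and 0.0073 for all genes, so the genes of the pathway did not move in 1 direction. Without control FFSS replicate 1, all 10 passed the test, with Nqo1, Gclm and Gsr lower as well, and of all genes 26.8% were then called higher and 28.4% lower. Without any 1 of the other 5 control libraries the count was 6, Keap1 no longer passing. In those fits 24.4% to 25.9% of all genes were called in either direction, against 35.8% with all 12 libraries. With each library's share of reads outside genes as a covariate 5 passed, 4 higher and 1 lower, without Nfe2l2 and Keap1, against 6.83% of all genes higher and 8.48% lower in that fit.

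In DKO cells, Gclc and Hmox1 rose with FFSS and no gene of the 10 fell. At an unadjusted p under 0.05 the edgeR counts were 6 and 0. For that threshold the share of all genes is not given, here or below, so those counts cannot be judged against all genes. DESeq2 called 3 of the 10 and limma-voom 1, against 4% and 0.711% of the genes each tested. Calls were few in the edgeR fit of all 12 libraries, with 0.376% of all genes higher, 0.497% lower and 0.0872% past 2-fold. All 3 FFSS libraries nevertheless lay above all 3 static ones for 6 of the 10 genes (Hmox1, Gclc, Gclm, Srxn1, Txnrd1 and Osgin1), against 14% of all genes. The median log2 fold change was 0.23 for the 10 genes and −0.0094 for all genes. Without control FFSS replicate 1, which is in neither of these groups and shares the estimate of the spread, those same 6 genes passed the test, and with the share of reads outside genes as a covariate they and Gsr did. The share of all genes called in either direction also rose, from 0.872% to 10.5% without that library and 9.96% with the covariate. Hmox1 no longer passed in 9 of the 12 fits that each left out 1 library.

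The difference between the FFSS effects in DKO and control cells was tested as an interaction. Hmox1 was the only one of the 10 genes past the threshold, against 3.97% of all genes, and it was also among the 0.651% of all genes past 2-fold. Without control FFSS replicate 1, 6 of the 10 genes passed: Nfe2l2, Keap1, Hmox1, Gclm and Gsr, with a higher FFSS effect in DKO cells, and Txnrd1, with a lower one. In that fit 37.8% of all genes passed. For the other genes an FFSS change called in control cells and not in DKO cells is therefore not shown to differ between the genotypes in edgeR with all 12 libraries. DESeq2 on all 12 libraries also called Nfe2l2 in the interaction (DESeq2 adjusted p = 0.0311), and it called 9.59% of the genes it tested.

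**Figure D1:**
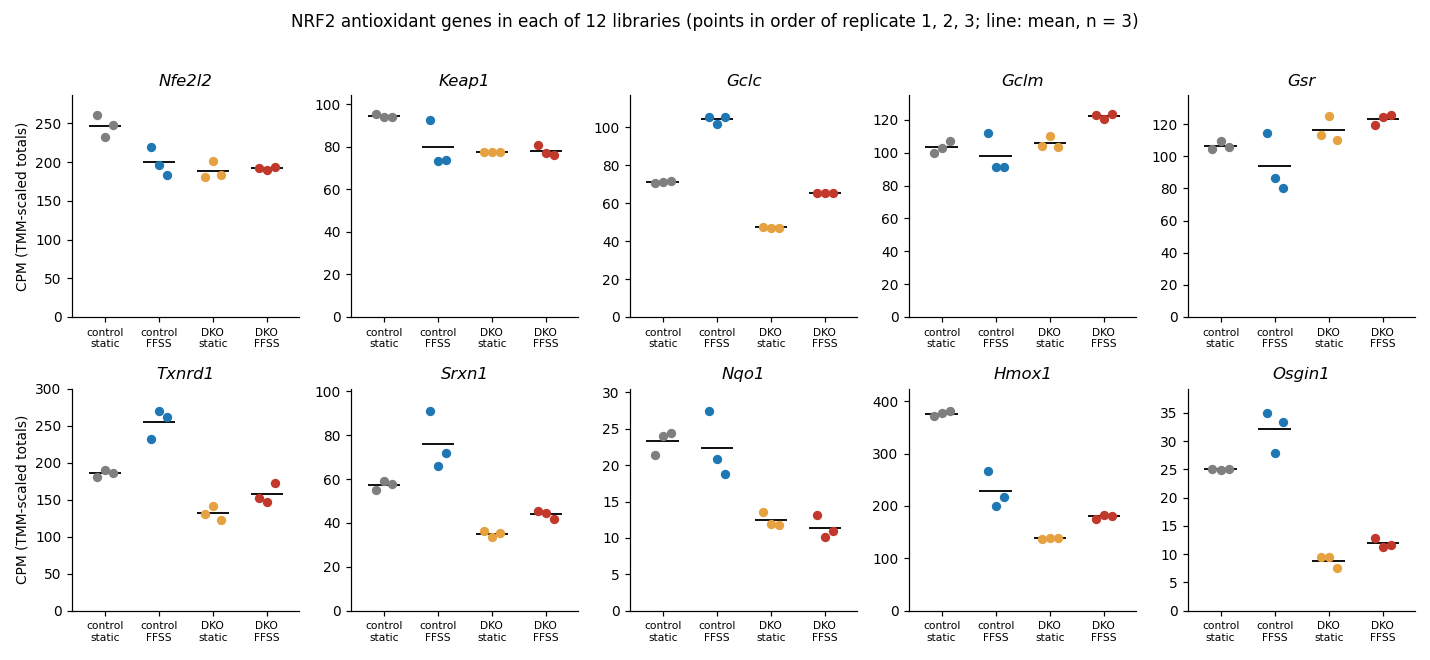
CPM, on TMM-scaled library totals, of each of the 10 genes in the 12 libraries, with points in the order of replicates 1, 2 and 3 and lines at the mean of 3 libraries. Gclc is higher under FFSS in both genotypes (104 against 71.2 CPM in control and 65.4 against 47.3 in DKO cells), whereas Hmox1 is lower in control (228 against 377) and higher in DKO cells (180 against 138).

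Levels between genes were compared per length, as reads per kilobase of the gene's merged exons and M reads (RPKM). Hmox1 had the highest level of the 10 genes in every group, with a mean of 174 RPKM in control static, 105.5 in control FFSS cells, 63.9 in DKO cells kept static and 83.4 in DKO cells under FFSS. Osgin1 had the lowest mean in every group, at 9.34, 12.01, 3.30 and 4.46 RPKM in the same order. Nfe2l2 came second in control static (65.1 RPKM), DKO static (49.6) and DKO FFSS cells (50.7), and Txnrd1 took second place in control FFSS cells (63.5 RPKM against 52.6 for Nfe2l2). In control static cells the libraries of Gclc (20.8 RPKM) and Srxn1 (20.3) overlapped, as did those of Srxn1 and Gclm (20.1). In control FFSS cells, neighbours in the order overlapped for Gsr and Gclc, Gclc and Srxn1, Gclm and Keap1, Keap1 and Nqo1, and Nqo1 and Osgin1. No neighbours overlapped in either DKO group.

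The regulators came first. Nfe2l2 (ENSMUSG00000015839, mm9 chromosome 2, 75513570 to 75542698, minus strand) encodes NRF2 itself. Its level was 262, 232 and 248 CPM in control static and 219, 196 and 183 in control FFSS libraries, so all FFSS libraries lay below all static ones. FFSS changed Nfe2l2 by −0.31 on the log2 scale (adjusted p = 0.00478 in edgeR, SE 0.0702), but with the share of reads outside genes as a covariate the value was −0.12 and did not pass (edgeR adjusted p = 0.338). In DKO cells Nfe2l2 was at 181, 202 and 183 CPM in static and 193, 190 and 194 in FFSS libraries, which overlapped, and the log2 fold change was 0.029 (95% interval −0.12 to 0.18, edgeR adjusted p = 0.923). The interaction was 0.34 (adjusted p = 0.0752 in edgeR, SE 0.0994) and passed without control FFSS replicate 1 (0.41, edgeR adjusted p = 7.05e-05), and in DESeq2 with all 12 libraries (0.35, DESeq2 adjusted p = 0.0311). Static DKO cells had less Nfe2l2 transcript than static control cells (log2 fold change −0.39, adjusted p = 0.000291 in edgeR, SE 0.0703). Under FFSS the genotypes overlapped, with a log2 fold change of −0.054 (95% interval −0.20 to 0.097) that was 0.019 without control FFSS replicate 1. It was −0.25 with library totals alone (edgeR adjusted p = 0.0025) and −0.17 with control FFSS replicate 1 as the only library of its group (edgeR adjusted p = 0.0232), both past the threshold. In bulk RNA, fewer cells with a transcript and less transcript per cell cannot be told apart, here and for every gene below.

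Keap1 (ENSMUSG00000003308, mm9 chromosome 9, 21034174 to 21043776, minus strand), the adaptor that targets NRF2 for degradation, followed Nfe2l2 in direction. It measured 95.6, 94.1 and 94.0 CPM in control static and 92.5, 73.5 and 73.9 in control FFSS libraries. The drop was carried by replicates 2 and 3, and replicate 1 lay just below the static libraries. The log2 fold change was −0.24 (adjusted p = 0.0252 in edgeR, SE 0.0764), and −0.36 without control FFSS replicate 1. It missed the threshold in 5 of the 12 fits that left out 1 library (edgeR adjusted p = 0.0761, 0.0621 and 0.0627 without control static replicates 1, 2 and 3, and 0.099 and 0.0986 without control FFSS replicates 2 and 3). It also missed with library totals alone (−0.12, edgeR adjusted p = 0.128), with the 6 control libraries alone (−0.24, edgeR adjusted p = 0.123) and with control FFSS replicate 1 as the only library of its group (−0.050, edgeR adjusted p = 0.609). With each library's share of reads outside genes as a covariate it was 0.023 (edgeR adjusted p = 0.877). DKO cells had 77.8, 77.6 and 77.4 CPM in static and 81.0, 77.1 and 76.4 in FFSS libraries, a log2 fold change of 0.010 (95% interval −0.15 to 0.18, edgeR adjusted p = 0.979). Between genotypes Keap1 was lower in static DKO cells (log2 fold change −0.29, adjusted p = 0.00579 in edgeR, SE 0.0766), though not with that covariate (−0.12, edgeR adjusted p = 0.0894). Under FFSS the difference was −0.033 (95% interval −0.20 to 0.13), and 0.085 without control FFSS replicate 1. It was −0.22 and past the threshold both with library totals alone (edgeR adjusted p = 0.00611) and with control FFSS replicate 1 as the only library of its group (edgeR adjusted p = 0.00245). The interaction of 0.25 (edgeR adjusted p = 0.18) passed without that library (0.37, edgeR adjusted p = 0.000137). Gm16754, on the opposite strand, overlaps Keap1 and had 2.36% as many reads.

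The genes of glutathione synthesis and recycling behaved differently from each other. Gclc (ENSMUSG00000032350, mm9 chromosome 9, 77602342 to 77642292, plus strand) encodes the catalytic subunit of glutamate-cysteine ligase, the rate-limiting enzyme of glutathione synthesis. Its level was 70.6, 71.2 and 71.9 CPM in control static and 105, 102 and 105 in control FFSS libraries. In DKO cells the values were 47.6, 47.1 and 47.1 CPM in static and 65.4, 65.4 and 65.3 in FFSS libraries. All FFSS libraries, including control replicate 1, lay above their static group, and no group overlapped another. FFSS raised Gclc by 0.55 on the log2 scale in control cells (adjusted p = 6.1e-06 in edgeR, SE 0.0476) and by 0.47 in DKO cells (adjusted p = 0.000451 in edgeR, SE 0.0488). The interaction was −0.080, with a 95% interval of −0.23 to 0.066 (edgeR adjusted p = 0.493). DKO cells had less Gclc in static conditions (log2 fold change −0.59, adjusted p = 1.99e-07 in edgeR, SE 0.0486) and under FFSS (−0.67, adjusted p = 4.69e-08 in edgeR, SE 0.0479). Each of these 4 calls held in every alternative run, and with FFSS the values ranged from 0.54 to 0.67 in control and from 0.46 to 0.48 in DKO cells.

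Gclm (ENSMUSG00000028124, mm9 chromosome 3, 121948475 to 121972902, plus strand) encodes the modifier subunit of the same ligase, which raises the efficiency of the catalytic subunit. It had 99.5, 103 and 107 CPM in control static and 112, 91.2 and 91.0 in control FFSS libraries, with replicate 1 above and replicates 2 and 3 below the static range. The log2 fold change was −0.075 (95% interval −0.23 to 0.083, edgeR adjusted p = 0.451), and −0.18 without replicate 1 (edgeR adjusted p = 0.00461). It was 0.16 with the share of reads outside genes as a covariate, 0.098 with replicate 1 as the only library of its group and 0.044 with library totals alone, so its direction depended on the setting. In DKO cells Gclm was at 104, 110 and 103 CPM in static and 123, 121 and 124 in FFSS libraries, which did not overlap, with a log2 fold change of 0.21 (adjusted p = 0.22 in edgeR, SE 0.0733). Unlike Gclc, Gclm did not differ past the threshold between static DKO and control cells (log2 fold change 0.038, 95% interval −0.12 to 0.20), except with the share of reads outside genes as a covariate (0.19, edgeR adjusted p = 0.011). Under FFSS it was higher in DKO cells (0.32, adjusted p = 0.00191 in edgeR, SE 0.0734), with 0.43 without control FFSS replicate 1 and 0.15 with that library as the only one of its group. With library totals alone in place of TMM scaling, which moved the median of all genes in this comparison from −0.051 to −0.25, that value was 0.13 and did not pass (edgeR adjusted p = 0.0783).

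The ratio of Gclc to Gclm transcript, in RPKM, was computed in each library because the subunits act as 1 enzyme. It was 1.06, 1.04 and 1.00 in control static and 1.41, 1.68 and 1.74 in control FFSS libraries. DKO cells had ratios of 0.684, 0.640 and 0.683 in static and 0.798, 0.812 and 0.794 in FFSS libraries. FFSS libraries lay above static libraries in both genotypes, and every DKO library lay below every control library. The ratio compares levels between genes and does not depend on how libraries are scaled.

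**Figure D2:**
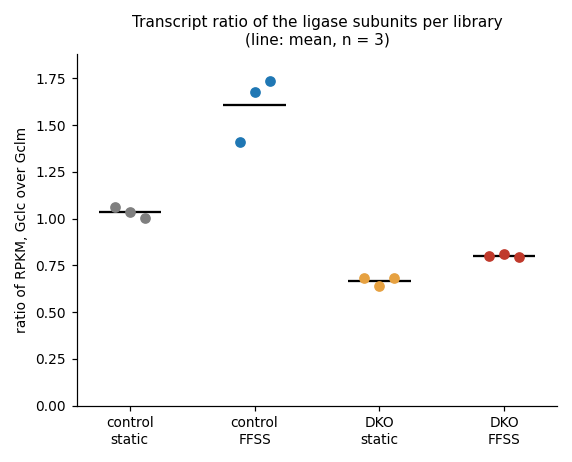
Ratio of Gclc to Gclm in RPKM (vertical axis, from 0) in each of the 12 libraries by group, with points for replicates 1, 2 and 3 and a line at the mean of 3 libraries. Means are 1.04 static and 1.61 under FFSS in control cells, and 0.669 static and 0.802 under FFSS in DKO cells, and no group overlaps another.

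Gsr (ENSMUSG00000031584, mm9 chromosome 8, 34762995 to 34808635, plus strand) encodes glutathione reductase, which returns oxidised glutathione to its reduced form. Control static libraries had 104, 109 and 105 CPM and control FFSS libraries 115, 86.7 and 80.3, again with replicate 1 above and replicates 2 and 3 below the static range. That is a log2 fold change of −0.18 (95% interval −0.40 to 0.040, edgeR adjusted p = 0.184), and −0.35 without replicate 1 (edgeR adjusted p = 9.66e-06). It turned to 0.18 with the share of reads outside genes as a covariate and to 0.089 with replicate 1 as the only library of its group. DKO libraries had 113, 125 and 110 CPM in static cells and 119, 124 and 126 under FFSS, which overlapped (log2 fold change 0.084, 95% interval −0.14 to 0.30). With that covariate the value was 0.21 and passed (edgeR adjusted p = 0.0194). Between genotypes, static libraries did not overlap but the difference did not pass the test (log2 fold change 0.13, 95% interval −0.094 to 0.35, edgeR adjusted p = 0.32). It did without control FFSS replicate 1, at the same log2 fold change of 0.13 (edgeR adjusted p = 0.0317), with the 6 static libraries alone, and with the share of reads outside genes as a covariate, at 0.36 (edgeR adjusted p = 5.89e-05). Under FFSS Gsr was higher in DKO cells (0.39, adjusted p = 0.00507 in edgeR, SE 0.103), but not with library totals alone (0.20, edgeR adjusted p = 0.0552) or with control FFSS replicate 1 as the only library of its group (0.12, edgeR adjusted p = 0.114).

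In the thioredoxin branch, both genes rose with FFSS in control cells and were lower in DKO cells. Txnrd1 (ENSMUSG00000020250, mm9 chromosome 10, 82296696 to 82360469, plus strand) encodes cytosolic thioredoxin reductase, which keeps thioredoxin reduced. It was at 181, 191 and 187 CPM in control static and 233, 271 and 263 in control FFSS libraries, with no overlap, and the log2 fold change was 0.45 (adjusted p = 0.00073 in edgeR, SE 0.0761), or 0.28 with the share of reads outside genes as a covariate (edgeR adjusted p = 0.0361). DKO cells had 131, 142 and 123 CPM in static and 153, 147 and 173 in FFSS libraries, also without overlap, and the change of 0.26 did not pass the test (adjusted p = 0.141 in edgeR, SE 0.0767). The interaction was −0.20 (95% interval −0.43 to 0.036, edgeR adjusted p = 0.285), and −0.26 without control FFSS replicate 1 (edgeR adjusted p = 0.015). Txnrd1 was lower in DKO cells, with log2 fold changes of −0.50 in static conditions and −0.70 under FFSS (edgeR adjusted p = 7.55e-05 and 3.25e-06).

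Srxn1 (ENSMUSG00000032802, mm9 chromosome 2, 151931252 to 151937112, plus strand) encodes sulfiredoxin, which repairs overoxidised peroxiredoxins. Levels were 55.0, 58.9 and 57.7 CPM in control static and 90.8, 65.8 and 71.8 in control FFSS libraries, with replicate 1 the highest of all 12 libraries. The log2 fold change was 0.41 (adjusted p = 0.00523 in edgeR, SE 0.0952), and 0.27 without replicate 1 (edgeR adjusted p = 0.000568). With the share of reads outside genes as a covariate it was 0.72 (edgeR adjusted p = 7.86e-06). The DKO values were 36.1, 33.4 and 35.4 CPM in static and 45.2, 44.6 and 42.0 in FFSS libraries. These did not overlap, and the log2 fold change was 0.33 (adjusted p = 0.146 in edgeR, SE 0.0988), with an interaction of −0.083 (95% interval −0.38 to 0.21). The interaction was 0.063 without control FFSS replicate 1, and −0.31 with that library as the only one of its group (edgeR adjusted p = 0.0236). Every DKO library lay below every control library, with log2 fold changes of −0.71 in static cells (adjusted p = 2.84e-05 in edgeR, SE 0.098) and −0.79 under FFSS (adjusted p = 8.67e-06 in edgeR, SE 0.0966).

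Hmox1 changed in opposite directions with FFSS in the control and DKO cells. Hmox1 (ENSMUSG00000005413, mm9 chromosome 8, 77617490 to 77624495, plus strand) encodes haem oxygenase 1, which breaks haem down to biliverdin, iron and carbon monoxide. In control cells it was at 371, 378 and 380 CPM in static and 266, 200 and 217 in FFSS libraries. In DKO cells it was at 138, 138 and 138 CPM in static and 176, 183 and 182 in FFSS libraries. The groups did not overlap in any comparison, and control FFSS replicate 1 lay between its group mates and the static libraries. FFSS gave a log2 fold change of −0.72 in control cells (adjusted p = 3.45e-05 in edgeR, SE 0.0799) and 0.38 in DKO cells (adjusted p = 0.0432 in edgeR, SE 0.0805). The former was −0.47 with the share of reads outside genes as a covariate (edgeR adjusted p = 0.000251). The interaction was 1.11 (adjusted p = 0.000241 in edgeR, SE 0.113) and ranged from 0.91 to 1.23 over 21 alternatives, past the threshold in each of them. The rise in DKO cells lost its call in 11 of 21 alternatives, with values between 0.37 and 0.47. Static DKO cells had less Hmox1 than static control cells, 138 against 377 CPM on average (log2 fold change −1.45, adjusted p = 4.66e-09 in edgeR, SE 0.0814). Under FFSS the distance between the genotypes was −0.34 (adjusted p = 0.00236 in edgeR, SE 0.08). It was −0.21 without control FFSS replicate 1 (edgeR adjusted p = 0.000303) and −0.54 with that library as the only one of its group, past the threshold in both.

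Nqo1 (ENSMUSG00000003849, mm9 chromosome 8, 109912125 to 109927106, minus strand), a quinone reductase widely used as a readout of NRF2 activity, differed by genotype and not by a detectable amount with FFSS. It had 21.4, 24.1 and 24.5 CPM in control static and 27.4, 20.8 and 18.8 in control FFSS libraries, which overlapped. The DKO libraries had 13.6, 11.9 and 11.8 CPM in static and 13.2, 10.2 and 10.9 under FFSS, which overlapped as well. With FFSS the log2 fold change was −0.062 in control cells (95% interval −0.34 to 0.22) and −0.12 in DKO cells (95% interval −0.43 to 0.19), and the former was −0.23 without control FFSS replicate 1 (edgeR adjusted p = 0.0387). The direction in control cells turned in other alternatives, to 0.33 with the share of reads outside genes as a covariate, 0.21 with control FFSS replicate 1 as the only library of its group and 0.055 with library totals alone. DKO libraries lay below control libraries in both conditions, with log2 fold changes of −0.91 in static cells (adjusted p = 6.25e-05 in edgeR, SE 0.137) and −0.97 under FFSS (adjusted p = 3.7e-05 in edgeR, SE 0.138).

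Osgin1 (ENSMUSG00000074063, mm9 chromosome 8, 121958024 to 121970156, plus strand), an oxidative stress-induced growth inhibitor, showed the lowest log2 fold change of the 10 genes between genotypes. It had 25.004, 24.952 and 25.005 CPM in control static and 34.99, 27.93 and 33.42 in control FFSS libraries. In DKO cells it had 9.46, 9.49 and 7.55 CPM in static and 12.9, 11.2 and 11.6 in FFSS libraries. FFSS libraries lay above static ones in both genotypes. The rise was 0.36 on the log2 scale in control cells (adjusted p = 0.0131 in edgeR, SE 0.0995) and the value in DKO cells was 0.43 (adjusted p = 0.0982 in edgeR, SE 0.114), with an interaction of 0.071 (95% interval −0.25 to 0.40). DKO cells had less Osgin1 in static conditions, 8.84 against 24.99 CPM on average (log2 fold change −1.50, adjusted p = 5.79e-08 in edgeR, SE 0.109) and under FFSS, 11.9 against 32.1 CPM (−1.43, adjusted p = 6.77e-08 in edgeR, SE 0.106).

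**Figure D3:**
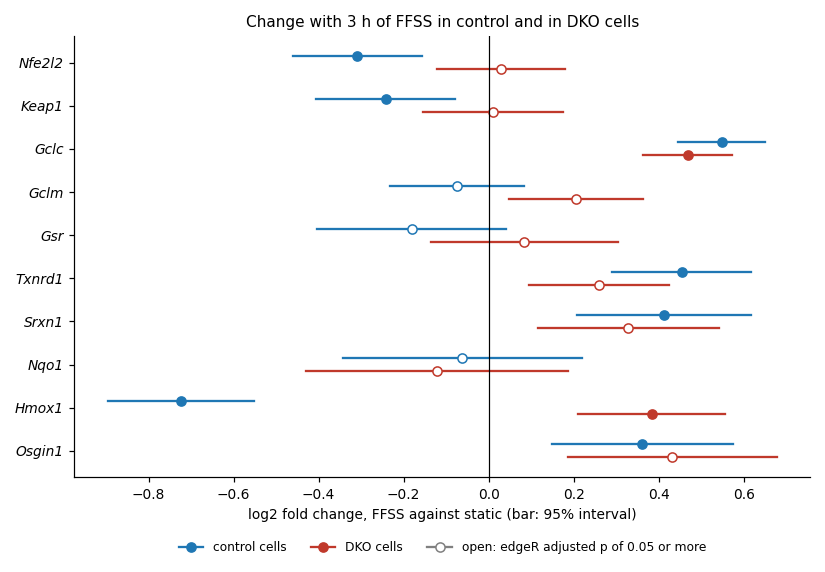
Log2 fold change of FFSS against static (horizontal axis) for each of the 10 genes in control and DKO cells, with 95% intervals from edgeR and filled points at an adjusted p under 0.05. Hmox1 lies at −0.72 in control and 0.38 in DKO cells, whereas Gclc lies at 0.55 and 0.47.

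**Figure D4:**
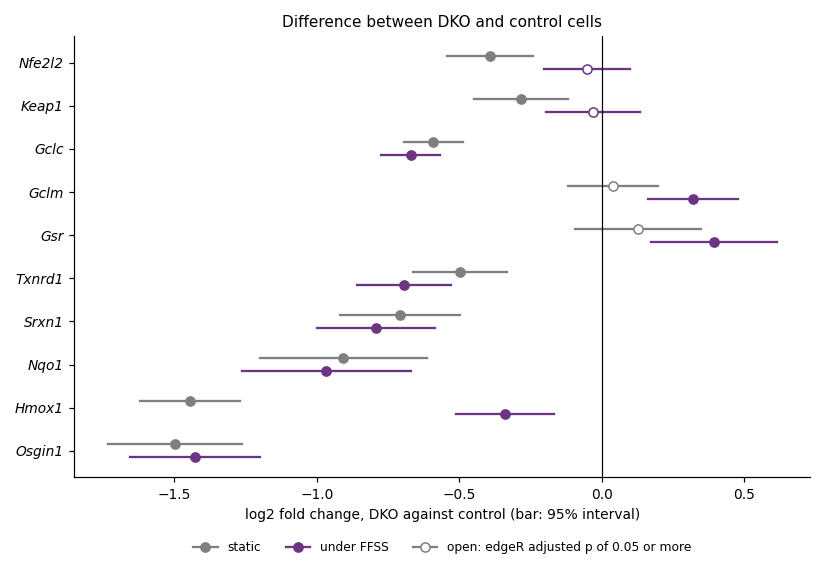
Log2 fold change of DKO against control cells (horizontal axis) for each of the 10 genes in static conditions and under FFSS, with 95% intervals from edgeR and filled points at an adjusted p under 0.05. Hmox1 moves from −1.45 in static cells to −0.34 under FFSS, whereas Osgin1 lies at −1.50 and −1.43.

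Against its own static libraries, each control FFSS library placed the 10 genes entirely outside the static range. Replicate 1 had 7 genes above it (Nqo1, Gclc, Gclm, Srxn1, Txnrd1, Osgin1 and Gsr) and 3 below (Nfe2l2, Keap1 and Hmox1). Replicates 2 and 3 each had 4 above (Gclc, Srxn1, Txnrd1 and Osgin1) and 6 below. Over all genes tested, 35.1%, 40.6% and 40.8% lay above and 38.3%, 41.7% and 42.3% below the static range in replicates 1, 2 and 3. The DKO FFSS libraries had 7, 6 and 7 of the genes above and 0, 2 and 2 below their static range, against 28.1%, 30.8% and 29.5% above and 31.1%, 33.8% and 30.6% below over all genes tested. Gclc, Srxn1, Txnrd1 and Osgin1 were thus above the static range in all 6 FFSS libraries, and Hmox1 below it in the 3 control and above it in the 3 DKO libraries.

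The wider pathway was described with 3 further lists. Of 14 partners and regulators of NRF2, all tested, 2 rose and 5 fell with FFSS in control cells, and 0 passed in DKO cells or in the interaction (edgeR quasi-likelihood test). At an unadjusted p under 0.05 these counts were 1 and 3, and DESeq2 and limma-voom called 0 in both. Without control FFSS replicate 1 the number past the threshold was 10 with FFSS in control cells and 5 in the interaction, when 55.2% and 37.8% of all genes passed. Between static genotypes, 2 were above control and 5 below it in DKO cells, and with FFSS 3 were above and 5 below. Over all genes tested, 17.7% rose and 18.1% fell with FFSS in control cells, 27% were higher and 27.2% lower between static genotypes, and 27% and 29.6% under FFSS. Mafg, a small MAF protein, has 2 gene IDs, of which the protein-coding one was counted. Sqstm1, whose product p62 binds KEAP1 and draws it into autophagy, was the only one past 2-fold in static cells. It had 1346, 1286 and 1340 CPM in control and 625, 666 and 624 in DKO static libraries, which is −1.05 on the log2 scale (adjusted p = 8.16e-09 in edgeR, SE 0.0629).

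Of 33 other NRF2 targets, 29 could be tested, and 18 were lower and 6 higher in static DKO than in static control cells, against 27.2% and 27% of all genes. Their median log2 fold change was −0.50, against 0.010 for all genes and −0.55 for the 10 genes above. The named ones are those with the widest differences past 2-fold among genes with an average log2 CPM above 1. Gsta4, a glutathione S-transferase, had 3.44, 3.28 and 3.63 CPM in control and 0.935, 0.549 and 0.722 in DKO static libraries (log2 fold change −2.22, edgeR adjusted p = 1.75e-06). Me1, malic enzyme and a source of NADPH, had 424, 388 and 410 against 89.4, 86.6 and 92.9 CPM (−2.18, edgeR adjusted p = 3.96e-06). The aldehyde oxidase Aox1 differed by −1.91 and the aldehyde dehydrogenase Aldh3a1 by −1.69 on the log2 scale. Ftl1, the ferritin light chain, differed by −1.62, but has near-identical copies between which reads can be lost. Under FFSS 19 of the 29 were lower and 5 higher in DKO cells, against 29.6% and 27% of all genes, with a median of −0.45 against −0.051 for all genes. Among those above that level, Aox1 (−2.41), Gsta4 (−1.94) and Aldh3a1 (−1.85) again stood at the low end. Slc40a1, the iron exporter ferroportin, and Ugdh, a dehydrogenase that makes UDP-glucuronate, stood at the other end, with log2 fold changes of 1.93 and 1.90.

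With FFSS in control cells, 7 of these 29 targets rose and 10 fell, against 17.7% and 18.1% of all genes. In DKO cells 0 passed in edgeR, DESeq2 or limma-voom, with 5 at an unadjusted p under 0.05 in edgeR, and 3 passed without control FFSS replicate 1, when 10.5% of all genes did. In control cells Slc40a1 was the only one past 2-fold. It had 9.83, 11.1 and 10.5 CPM in control static and 5.29, 3.37 and 4.26 in control FFSS libraries (log2 fold change −1.29, adjusted p = 3.13e-05 in edgeR, SE 0.14). In DKO cells it had 19.5, 21.6 and 18.3 CPM in static and 17.3, 15.2 and 16.6 in FFSS libraries (−0.27, edgeR adjusted p = 0.34), and the interaction was 1.01 (adjusted p = 0.0102 in edgeR, SE 0.185). Ugdh also passed in the interaction, and without control FFSS replicate 1 the number that did was 18, when 37.8% of all genes passed instead of 3.97%.

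Of 26 other antioxidant enzymes and their modulators, 7 were higher and 10 lower in static DKO cells, with a median of −0.028, against 27% and 27.2% of all genes. With FFSS 3 rose and 3 fell in control cells (17.7% and 18.1% of all genes), and 1 fell in DKO cells (0.497%). That one was Nnt, a mitochondrial NADPH-producing transhydrogenase (log2 fold change −0.30, edgeR adjusted p = 0.0496), named after its value was seen. This call was lost in 13 of the 21 alternative fits, including limma-voom (adjusted p = 0.0598), with an adjusted p of up to 0.215. Without control FFSS replicate 1, 14 of the 26 passed in control cells, 4 in DKO cells and 8 in the interaction. Of all genes, 55.2%, 10.5% and 37.8% passed in that fit, in the same order. DESeq2 called 3 of the 26 in DKO cells and limma-voom 0, against 4% and 0.711% of the genes each tested. At an unadjusted p under 0.05 in edgeR 5 were higher and 2 lower. Txnip, which binds and inhibits thioredoxin, had 6.87, 8.54 and 8.37 CPM in static control libraries against 83.8, 51.7 and 54.7 in static DKO ones, which is 3.00 on the log2 scale (adjusted p = 3.89e-06 in edgeR, SE 0.261). The glutaredoxin Glrx2 (1.26) and the peroxidase Gpx8 (1.18) were also higher, and Sesn2 (−1.41) and the extracellular superoxide dismutase Sod3 (−1.16) were lower, in static DKO cells. Under FFSS, Txnip (3.64), Gpx8 (1.43) and Gpx7 (1.11) were higher and Sod3 (−1.69) and Sesn2 (−1.17) lower in DKO cells. Gm15441 overlaps Txnip and had 1.18% as many reads. The 10 genes and the other targets therefore had similar medians between genotypes in static cells, −0.55 and −0.50, while those of the partners (0.034) and of the other enzymes (−0.028) were near that of all genes.

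**Figure D5:**
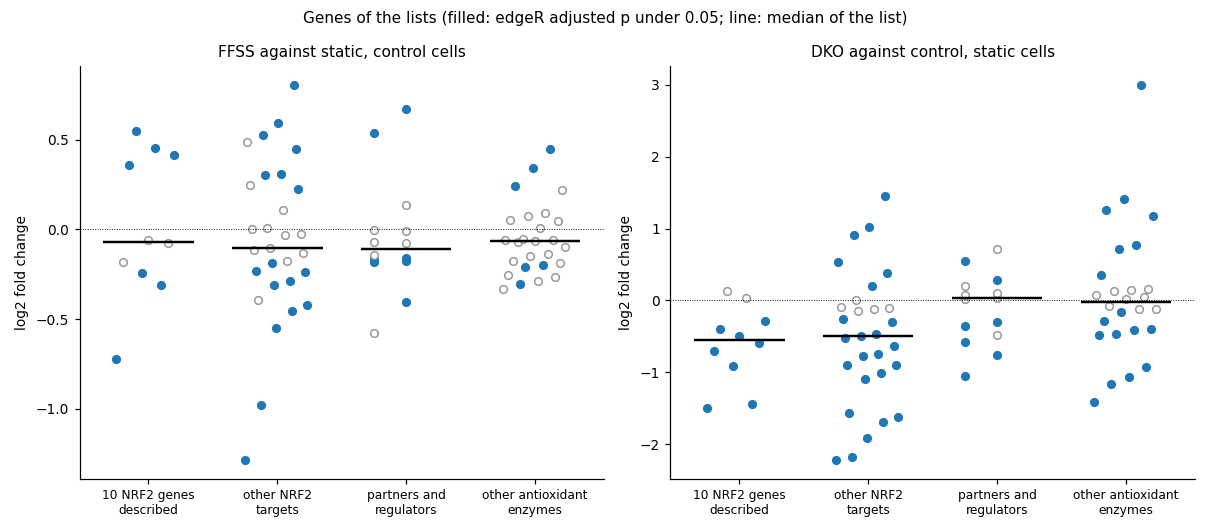
Log2 fold change (vertical axis) of each tested gene of the 10 NRF2 genes and the 3 further lists, for FFSS against static in control cells (left) and DKO against control in static cells (right), with filled points at an edgeR adjusted p under 0.05 and lines at the median. In static cells the 10 genes and the other NRF2 targets have medians of −0.55 and −0.50, against 0.034 for the partners and −0.028 for the other enzymes.

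The genes most like Nfe2l2, Hmox1 and Nqo1 over the 12 libraries were found by Pearson correlation of log2 CPM among 11413 genes, as a description. All 12 libraries fall into 4 groups and share their scaling, so any gene with the same order of group means scores high. For Nfe2l2 they were Ano6 (r = 0.968), Atp6v1d (0.966) and 8430406I07Rik (0.961). For Hmox1 they were Snx21 (0.978), Trim24 (0.978) and Grasp (0.973), and for Nqo1 Scara3 (0.984), Taf9 (0.982) and Glrx (0.981).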

How the data were processed

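RNA-seq counts of 12 libraries were analysed. Per the study's methods and the submitters' processing notes, the authors aligned reads with STAR to mm9 and counted them per gene with HTSeq without regard to strand. The deposited values are raw counts per gene, neither normalised nor filtered. Reads from genes overlapping on opposite strands cannot be told apart, and near-identical copies lose reads. Groups were taken from the sample titles. Symbols and lengths came from an mm9 annotation (37168 of 37583 IDs matched).

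Genes with 0 counts in more than 1 library were removed, as in the study's methods, leaving 14904 of 24360 genes with any count. edgeR 4.0.16 (R 4.3.3) fitted robust quasi-likelihood models with TMM scaling to all libraries as 4 groups, and p-values were Benjamini-Hochberg adjusted over all genes tested. A gene was called at an adjusted p under 0.05. CPM and RPKM use TMM-scaled totals, and log2 CPM a prior count of 2. The procedure was tested on simulated data that held no outlying library. That test therefore does not cover calls that depend on control FFSS replicate 1. Depth was 17.6 to 19.2 M assigned reads per library. Replicates were compared by chi-square, and none matched within sampling noise.

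The 10 genes, the lists and the tests were chosen with earlier results of these data known. All 10 genes are described. From the other lists, up to 5 genes per comparison are named, those with the highest absolute fold change among genes past 2-fold and the threshold with an average log2 CPM above 1. Alternatives tried were library totals alone, RLE factors, no filter or a different one, the 6 libraries of a comparison, DESeq2 1.42.0, limma-voom (limma 3.58.1), the replicate number as a block, the share of reads outside genes as a covariate, other thresholds, and leaving out each library.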

Additional observations from a re-analysis of the deposited data

Results flagged for a closer look

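By the interaction test over all 12 libraries (edgeR quasi-likelihood test), the FFSS effect differed between DKO and control cells for 3 genes of the lists. For Hmox1 the difference was 1.11 on the log2 scale (adjusted p = 0.000241 in edgeR, SE 0.113), and the effects had opposite signs. For Slc40a1 it was 1.01 (adjusted p = 0.0102 in edgeR, SE 0.185), past the threshold in all 21 alternatives run. For Ugdh, singled out after its values were seen, it was 0.44 (adjusted p = 0.0462 in edgeR, SE 0.113), but 13 of 21 alternatives, each an edgeR fit, gave an adjusted p above the threshold, up to 0.13. Control libraries of Ugdh held 321, 326 and 345 CPM when static and 326, 266 and 252 after FFSS. DKO libraries held 924, 908 and 889 CPM when static and 1019, 1087 and 1039 after FFSS.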

How the results depend on the processing

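Of 1070 values of the 10 genes under 22 alternatives, 989 kept their direction and their side of the threshold, 24 lost the call, 33 gained one and 24 changed sign. Of 26 calls, 20 held in every alternative run. These alternatives reuse the same libraries, and leaving out a library from outside a comparison hardly moves its fold change. Values called in neither fit also count as kept, so the tally is not one of independent repeats. The number of the 10 genes called with FFSS in DKO cells was 2, against 0.872% of all genes. With the 6 libraries of the comparison alone it was 6 (11.9% of all genes), and with limma-voom 1 (0.711%). With the share of reads outside genes as a covariate it was 7 (9.96%), at an adjusted p under 0.01 it was 1 (0.174%), and past 2-fold 0 (0.0872%). The number called in the interaction (1, against 3.97% of all genes) was 2 with DESeq2 (Hmox1 and Nfe2l2), which called 9.59% of the genes it tested. With control FFSS replicate 1 as the only library of its group, the interaction was 0.91 for Hmox1 and −0.31 for Srxn1. That alternative was chosen after seeing the data, and the other groups supply its spread. Past 2-fold the counts were 0 for FFSS in control cells (7), 2 for static genotype (8) and 1 for genotype under FFSS (8). Leaving out each library in turn gave 6 to 10 calls for FFSS in control cells, 1 to 6 for FFSS in DKO cells, 1 to 6 for the interaction, 8 to 9 for static genotype and 8 to 8 for genotype under FFSS, and the 10, both 6s and the 9 came without control FFSS replicate 1. In the same order, those fits called 24.4% to 55.2%, 0.0872% to 10.5%, 1.21% to 37.8%, 48.6% to 64% and 50% to 65.2% of all genes. The cause was not tested.

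Same-numbered replicates did not deviate together (mean correlation of deviations 0.00226, against −0.00116 for different numbers), so the numbers were not taken as pairs. With the replicate block, 1 gene was called with FFSS in DKO cells, against 0.47% of all genes, and no other count of the 10 genes changed. Library totals alone moved the median of all genes to 0.13 for FFSS in control cells, −0.13 for the interaction and −0.25 for genotype under FFSS.

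Changes of sign were all of values that did not pass the test, except Keap1 with FFSS in control cells. With library totals alone, Nqo1 (0.055) and Gclm (0.044) with FFSS in control cells, Osgin1 in the interaction (−0.040) and Gclm between static genotypes (−0.044) changed sign. With the covariate, Keap1 (0.023), Nqo1 (0.33), Gclm (0.16) and Gsr (0.18) with FFSS in control cells, Nqo1 with FFSS in DKO cells (0.019) and Osgin1 in the interaction (−0.013) did. With control FFSS replicate 1 alone in its group, Nqo1 (0.21), Gclm (0.098) and Gsr (0.089) with FFSS in control cells and Osgin1 in the interaction (−0.028) did. Over fits without 1 library, Nqo1 ranged from −0.23 to 0.048 with FFSS in control cells and from −0.17 to 0.11 in the interaction, Keap1 from −0.016 to 0.027 with FFSS in DKO cells, Osgin1 from −0.037 to 0.14 and Srxn1 from −0.18 to 0.063 in the interaction, and Nfe2l2 from −0.11 to 0.019 and Keap1 from −0.090 to 0.085 between genotypes under FFSS.

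Without control FFSS replicate 1, calls in the interaction rose from 0 to 5 for the partners, from 2 to 18 for the other targets and from 0 to 8 for the other enzymes, and those with FFSS in control cells from 6 to 14 for the other enzymes. The share of all genes called rose as well, from 3.97% to 37.8% in the interaction and from 35.8% to 55.2% with FFSS in control cells. Over all alternatives, thresholds included, the calls in the partners, other targets and other enzymes ranged from 0 to 10 (7), 1 to 20 (17) and 0 to 14 (6) for FFSS in control cells, 0 to 2 (0), 0 to 4 (0) and 0 to 6 (1) for FFSS in DKO cells, 1 to 9 (7), 10 to 26 (24) and 7 to 20 (17) between static genotypes, and 1 to 10 (8), 12 to 26 (24) and 6 to 21 (18) between genotypes under FFSS, with the reported count in brackets. Over the same alternatives the share of all genes called ranged, for these comparisons in the same order, from 5.93% to 55.2%, 0.0872% to 11.9%, 15.3% to 65.3% and 17.2% to 65.2%. All 23 fold changes that chose the other named list genes kept their direction and call in every alternative run. Osgin1 and Nqo1 had as few as 136 and 171 reads in a library, which limits how small an FFSS effect could be seen.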
